A study of Mus musculus with 6 samples.

Results

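The genes of CaMKII, of the related kinase Camk4, of the phosphatase calcineurin and of the calmodulin-binding protein neurogranin were followed through hippocampal expression profiles of Tg2576 mice. The 9 genes were Camk2a, Camk2b, Camk2d, Camk2g, Camk4, Ppp3ca, Ppp3cb, Ppp3r1 and Nrgn, and every probe set that the array annotation assigns to 1 of these symbols and to no other was taken. That gave 32 of 45101 probe sets, and 9 of 18194 genes that had such a probe set. Tg2576 mice carry a human amyloid precursor protein transgene with the Swedish mutation, driven by the prion protein promoter, and all mice were males of C57BL/6 strain (C57BL/6J in the methods). The first group had 18 month-old mice given the ACE inhibitor captopril in drinking water, at 20 mg/kg/day for 6 months (Tg-18mo-ACEI). The second group had untreated 18 month-old mice with high Aβ plaque load (Tg-18mo), and the third group had untreated 12 month-old mice with low plaque load (Tg-12mo), the age at which treatment began. Each group had 2 gene chips, and each chip carried a pool of hippocampal RNA from 4 mice, so a pool below is 1 chip. Mice without the transgene were not part of the comparison, and p-values measure the spread between chips of pooled RNA, not between single mice. The tissue is whole hippocampus, so fewer cells of a type and less RNA per cell cannot be told apart.

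In neurons, calcium entering through synaptic receptors binds calmodulin, and calcium-bound calmodulin switches on both a set of kinases and an opposing phosphatase. CaMKII is a multi-subunit kinase of the postsynaptic density that is needed for long-term potentiation and spatial learning in mice, while calcineurin, built from a catalytic A and a regulatory B subunit, dephosphorylates synaptic targets and acts in long-term depression. Neurogranin is a postsynaptic protein that holds calmodulin while calcium is low.

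RefSeq promoters of mouse build GRCm38.p6 (250 bases before to 50 bases after the gene start) were found for 5 of the 9 genes. The promoters of Ppp3r1, Ppp3cb and Nrgn are shown because the brightest probe sets of the calcineurin genes and of Nrgn differed in opposite directions between the ages on the deposited signals, which for calcineurin did not hold after quantile normalization. They lie at chr11:17159048-17159347 (Ppp3r1, plus strand), chr14:20546524-20546823 (Ppp3cb, minus strand) and chr9:37552696-37552995 (Nrgn, minus strand). Capitals mark the letters TGACG or their reverse complement CGTCA, an arm of the palindromic cyclic AMP response element.
Ppp3r1: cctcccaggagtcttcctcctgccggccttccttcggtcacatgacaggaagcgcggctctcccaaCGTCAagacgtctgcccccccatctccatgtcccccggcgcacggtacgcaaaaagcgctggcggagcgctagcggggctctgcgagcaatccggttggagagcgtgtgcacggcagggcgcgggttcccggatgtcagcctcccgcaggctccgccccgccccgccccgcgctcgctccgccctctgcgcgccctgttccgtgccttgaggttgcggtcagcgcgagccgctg
Ppp3cb: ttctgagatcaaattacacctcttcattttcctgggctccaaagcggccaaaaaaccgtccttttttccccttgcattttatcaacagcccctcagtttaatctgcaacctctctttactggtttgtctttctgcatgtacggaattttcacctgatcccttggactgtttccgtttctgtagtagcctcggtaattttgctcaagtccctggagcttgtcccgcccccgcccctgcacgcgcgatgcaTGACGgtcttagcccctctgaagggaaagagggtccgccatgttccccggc
Nrgn: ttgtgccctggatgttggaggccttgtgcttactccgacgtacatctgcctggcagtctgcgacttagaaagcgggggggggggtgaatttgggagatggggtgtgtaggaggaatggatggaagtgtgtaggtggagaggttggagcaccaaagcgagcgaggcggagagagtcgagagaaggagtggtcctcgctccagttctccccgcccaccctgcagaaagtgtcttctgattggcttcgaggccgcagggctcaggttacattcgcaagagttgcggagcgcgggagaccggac
These letters were present once in the Ppp3r1 window, at -184 from the start, and once in the Ppp3cb window, at -1, and they were not in the Nrgn window. The windows of Camk2b and Camk2d, which are not printed, also held none of them. The letters were found in 20.8% of 32851 promoters of the same length. The full element TGACGTCA was in none of these windows and in 1.79% of all promoters. GC boxes (GGGCGG or CCGCCC) numbered 4 in Ppp3r1, 2 in Ppp3cb and 1 in Nrgn, and 35.7% of all promoters held this motif at least once. The GC content was 70.7% for Ppp3r1, 51.0% for Ppp3cb and 59.3% for Nrgn, against a median of 52.7%. These matches describe the sequence only.

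The values are linear signal intensities, which the authors scaled to a target of 600 on each chip, and a signal of one probe set cannot be set against that of another. Of the 32 probe sets, 24 reached a group mean of 100 and were tested. The other 8 stayed between 3.77 and 97.2 on all chips: 4 of 7 for Camk2d, 2 of 5 for Camk4, and 1 each for Camk2a and Ppp3cb. Log2 signals were compared with limma over 23262 probe sets, and a probe set was called at a Benjamini-Hochberg adjusted p under 0.05. Chips of the same group correlated with r of 0.987 to 0.992, and chips of different groups with 0.958 to 0.965. The highest signal of a chip was 21933.6 to 25102.3 on the Tg-18mo-ACEI and Tg-18mo chips and 39494.1 and 40189.9 in the Tg-12mo pools. The β-actin 3′/5′ ratio was 1.45 and 1.38 in the Tg-18mo-ACEI pools, 1.98 and 1.88 in the Tg-18mo pools and 1.83 and 1.77 in the Tg-12mo pools. The Gapdh 3′/5′ ratio was 0.854 and 0.855, 0.828 and 0.832, and 0.862 and 0.849 in that group order. Summed signals of marker genes also differed between groups. Those of 4 CA pyramidal neuron markers (of 5 listed) were 13799.1 to 14963.4 in the Tg-18mo-ACEI pools, 13448.5 to 13632.8 in the Tg-18mo pools and 11520.5 to 12231 in the Tg-12mo pools, and those of 5 dentate granule neuron markers were 10595.7 to 10862.1, 10464.2 to 10894.2 and 10073.9 to 10349.7 in that group order. Those of 5 interneuron markers were 23952.8 to 24440.2, 28247.9 to 28838.8 and 28808.4 to 29525.3, and those of 4 oligodendrocyte markers 41427.1 to 43312.5, 46895.9 to 48435.2 and 69035 to 69072.4. The summed signal of 7 choroid plexus markers was 20016 to 21987.2 in the Tg-18mo-ACEI pools, 25573.3 to 27991.6 in the Tg-18mo pools and 43423.2 to 43579.3 in the Tg-12mo pools, and no marker of this list was below 100 on all chips. That of 5 striatal neuron markers was 2740 to 2934.2, 4579.3 to 4769.1 and 2840.7 to 2965.4 in that group order, with none below 100 on all chips. That of 5 thalamic neuron markers was 2231.8 to 2248.6, 2939.7 to 2957 and 2138.9 to 2170.3, with Gbx2 below 100 on all chips. That of 5 cerebellar granule neuron markers was 4017.8 to 4355, 5550 to 5819.6 and 4817.7 to 4988.3, with Barhl1 below 100 on all chips. Those of 5 astrocyte markers were 31560.3 to 31868.4, 28665 to 29517.3 and 26791.8 to 27870.4. Those of 5 microglia markers were 11512.2 to 11949, 10441.5 to 11175.1 and 11570.3 to 11699.1. Bright markers weigh most in these sums, and calls of single markers could run otherwise. For 18 minus 12 months, 3 of the 7 choroid plexus markers were called higher and 1 lower (median log2 0.1). With captopril, 6 of them were lower and 0 higher (median -2.57). Of the 4 tested cerebellar markers, 3 were higher and 1 was lower with captopril (median 1.37). The part of all these differences in the results below was not tested.

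The first comparison asked which of the genes differed with captopril at 18 months. Of the 24 tested probe sets, 4 were higher and 4 were lower in Tg-18mo-ACEI compared to Tg-18mo. That is 16.7% in each direction, near the 15.9% higher and 17.7% lower among all probe sets tested, and no member differed by 2-fold. The median log2 difference was 0.05 over the members and -0.04 over all probe sets. By the brightest probe set of each gene, 1 of 9 genes was lower (Nrgn), 0 were higher, and 8 were not called with limma, also at an unadjusted p under 0.05. The higher calls were on Camk2a, Ppp3ca and Ppp3cb, and the lower calls on Camk2a, Camk2g, Ppp3ca and Nrgn, so that Camk2a and Ppp3ca had a call in each direction. Of the 8 calls, 4 (3 higher and 1 lower) stayed past the threshold in every alternative limma fit run on single probe sets: Camk2a 1437125_at, Ppp3cb 1427468_at, Ppp3cb 1428474_at and Camk2g 1423942_a_at. All of these but Ppp3cb 1428474_at were singled out after their values were seen, like the Ppp3ca probe sets 1438478_a_at and 1452056_s_at.

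**Figure D1:**
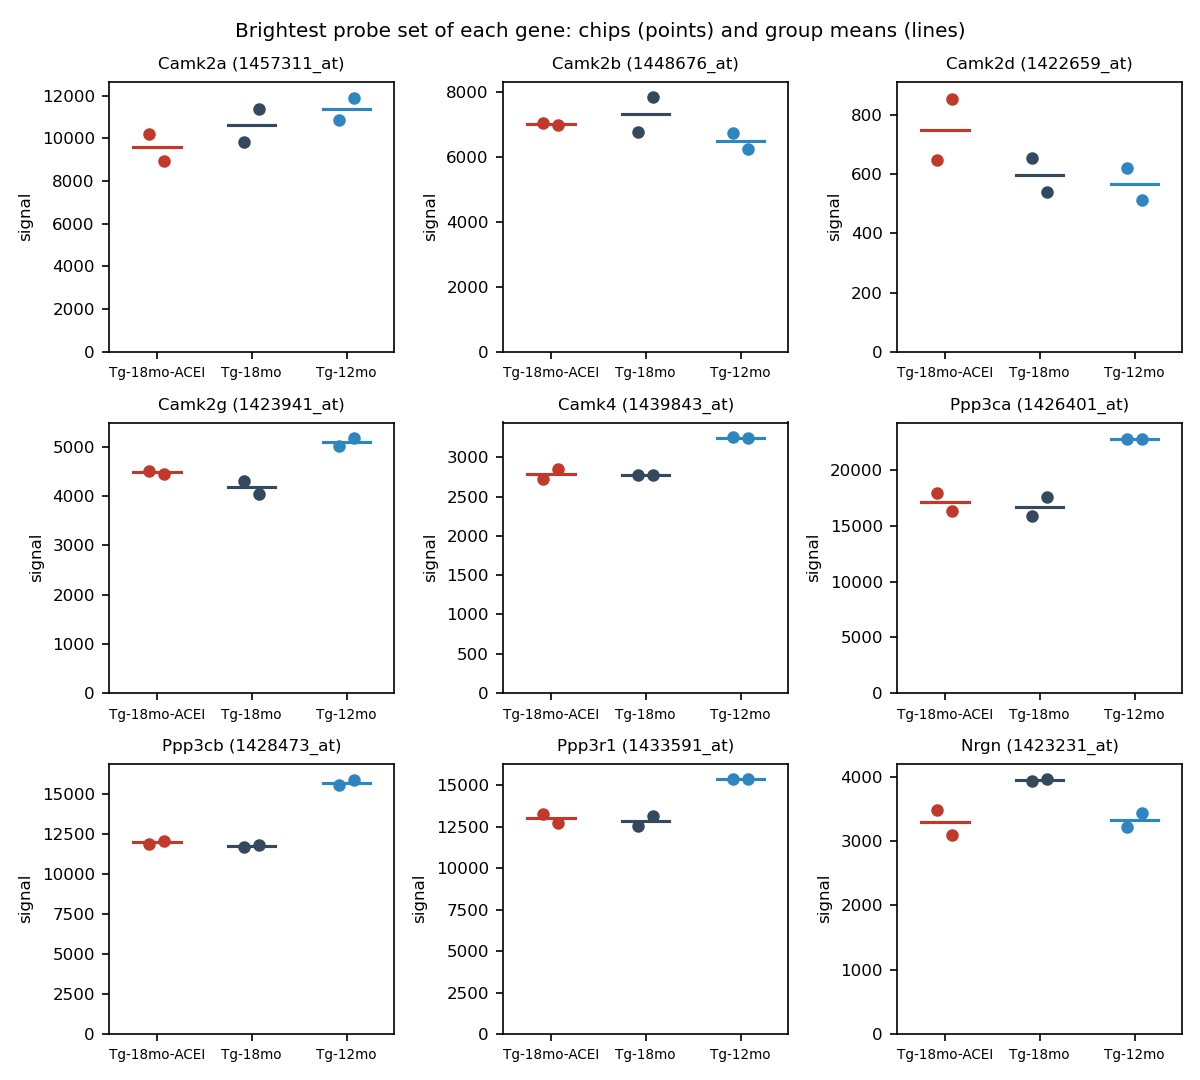
Signal (linear, scaled to a target of 600) of the brightest probe set of each of the 9 genes, with chips as points and group means as lines, for Tg-18mo-ACEI, Tg-18mo and Tg-12mo. The 4 chips of 18 month-old mice lie below both Tg-12mo chips for Camk2g, Camk4, Ppp3ca, Ppp3cb and Ppp3r1, while for Nrgn both Tg-18mo chips lie above the others.

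Among the CaMKII genes, Camk2a encodes the alpha subunit, which predominates in excitatory neurons of the mouse forebrain and whose mRNA is also carried into dendrites. Its brightest probe set (1457311_at) had signals of 10204.7 and 8946.9 in the Tg-18mo-ACEI pools and 9823.4 and 11374.4 in the Tg-18mo pools. The 2 groups overlapped, and the log2 difference of -0.15 ± 0.09 (SE) was not called (adjusted p = 0.23). A further probe set (1437125_at) had 7257.8 and 7386.6 in the Tg-18mo-ACEI pools and 5572.6 and 5897.5 in the Tg-18mo pools. Both treated chips were above both untreated chips, with a 1.28-fold higher signal (log2 0.35 ± 0.05, adjusted p = 0.00083). The dimmer 1442707_at ran the other way, with 807 and 749 in the Tg-18mo-ACEI pools and 971 and 982 in the Tg-18mo pools. It was 1.26-fold lower with captopril (log2 -0.33 ± 0.07, adjusted p = 0.0093), a call lost on leaving out replicate 2 of Tg-18mo-ACEI (adjusted p = 0.071) or of Tg-18mo (0.062). The remaining Camk2a probe sets were not called.

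Camk2b encodes the beta subunit, which also binds actin filaments. Its single probe set had 7049.1 and 6975.8 in the Tg-18mo-ACEI pools and 6778.2 and 7845.7 in the Tg-18mo pools, and the treated chips lay between the untreated ones (log2 -0.06, 95% interval -0.22 to 0.11). Camk2d encodes the delta subunit, best known from the heart. Its brightest probe set had 646 and 852 in the Tg-18mo-ACEI pools and 653 and 540 in the Tg-18mo pools, which overlapped (log2 0.32, interval -0.03 to 0.67, adjusted p = 0.14). Its 3 tested probe sets had log2 differences of 0.25 to 0.32 and none was called.

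For Camk2g, the gamma subunit, the probe sets disagreed. The brightest (1423941_at) had 4519.2 and 4461.5 in the Tg-18mo-ACEI pools and 4320.0 and 4040.7 in the Tg-18mo pools, a log2 difference of 0.10 that was not called (interval -0.01 to 0.22). The second (1423942_a_at), annotated to the same target accession, had 3645.3 and 3558.2 in the Tg-18mo-ACEI pools and 4467.2 and 4275.3 in the Tg-18mo pools. The second was 1.21-fold lower with captopril (log2 -0.28 ± 0.05, adjusted p = 0.0028). Camk4 encodes a mainly nuclear kinase that phosphorylates the transcription factor CREB. Its brightest probe set had 2725.6 and 2846.3 in the Tg-18mo-ACEI pools and 2772.7 and 2774.7 in the Tg-18mo pools, with the untreated chips inside the treated range (log2 0.01, interval -0.10 to 0.11). None of its 3 tested probe sets was called in this comparison, at log2 differences of 0.01 to 0.63. The limma fit of the average over its plain probe sets (those without _a, _s or _x) was called higher (0.32, adjusted p = 0.027). That over all 3 was not. The plain average joins the brightest probe set (log2 0.01) with the dim 1441974_at (0.63). Mean signals of 1441974_at were 111 in Tg-18mo-ACEI, 71.6 in Tg-18mo and 93.0 in Tg-12mo. It entered the test only through its treated mean, so no difference of Camk4 with captopril is read from this call.

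Ppp3ca encodes the alpha isoform of the calcineurin catalytic subunit, the main isoform in mouse brain. The brightest probe set (1426401_at) had 17989.3 and 16363.0 in the Tg-18mo-ACEI pools and 15873.0 and 17587.8 in the Tg-18mo pools, which overlapped (log2 0.04, interval -0.11 to 0.18). After quantile normalization it was called higher, at 0.11 (adjusted p = 0.033). The other 2 probe sets were called in opposite directions, 1438478_a_at lower (log2 -0.17, adjusted p = 0.025) and 1452056_s_at higher (0.16, adjusted p = 0.022). The lower call was lost on leaving out Tg-18mo-ACEI replicate 1 (adjusted p = 0.065), Tg-18mo-ACEI replicate 2 (0.11) or Tg-18mo replicate 2 (0.16). The higher call was lost without each of the 4 chips compared (adjusted p = 0.059 to 0.11).

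Ppp3cb encodes the beta isoform of the catalytic subunit. Its brightest probe set (1428473_at) had 11897.8 and 12045.5 in the Tg-18mo-ACEI pools and 11700.5 and 11826.1 in the Tg-18mo pools. The chips did not overlap, but the log2 difference of 0.03 (interval -0.07 to 0.12) was not called. The next (1427468_at) had 4331.8 and 4364.2 in the Tg-18mo-ACEI pools and 3508.8 and 3351.2 in the Tg-18mo pools. It was 1.27-fold higher with captopril (log2 0.34 ± 0.05, adjusted p = 0.0012). The dimmest tested one (1428474_at) had 706 and 692 in the Tg-18mo-ACEI pools and 493 and 364 in the Tg-18mo pools. It was 1.65-fold higher with captopril (log2 0.72 ± 0.14, adjusted p = 0.0047), the largest difference of any called member in this comparison, and its untreated chips were far apart. The 4 tested Ppp3cb probe sets had log2 differences of 0.03 to 0.72, and the limma fit of their average was called higher (0.31, adjusted p = 0.0028). Ppp3r1 encodes the regulatory B subunit of brain calcineurin. Its brightest probe set had 13298.7 and 12717.3 in the Tg-18mo-ACEI pools and 12571.8 and 13178.7 in the Tg-18mo pools, which overlapped (log2 0.01, interval -0.09 to 0.12).

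Nrgn had signals of 3487.2 and 3093.5 in the Tg-18mo-ACEI pools and 3928.2 and 3962.2 in the Tg-18mo pools. Both treated chips were below both untreated chips, and the signal was 1.20-fold lower with captopril (log2 -0.26 ± 0.06, adjusted p = 0.015, and -0.29 after quantile normalization). The adjusted p passed 0.05 on leaving out Tg-18mo-ACEI replicate 2 (0.095, at log2 -0.18), Tg-18mo replicate 1 (0.059) or Tg-18mo replicate 2 (0.075). The striatal marker sum given above was lower on the same chips: of its 5 markers, 3 were called lower and 0 higher with captopril. Of 5 interneuron markers 4 were lower and 0 higher, and of 4 tested thalamic markers 2 were lower and 1 was higher. The hippocampal lists did not run one way: 1 marker was higher and 1 lower among 4 of CA pyramidal neurons. Among 5 of dentate granule neurons, 1 was higher and 1 lower. The part of these cells in the Nrgn difference was not tested.

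**Figure D2:**
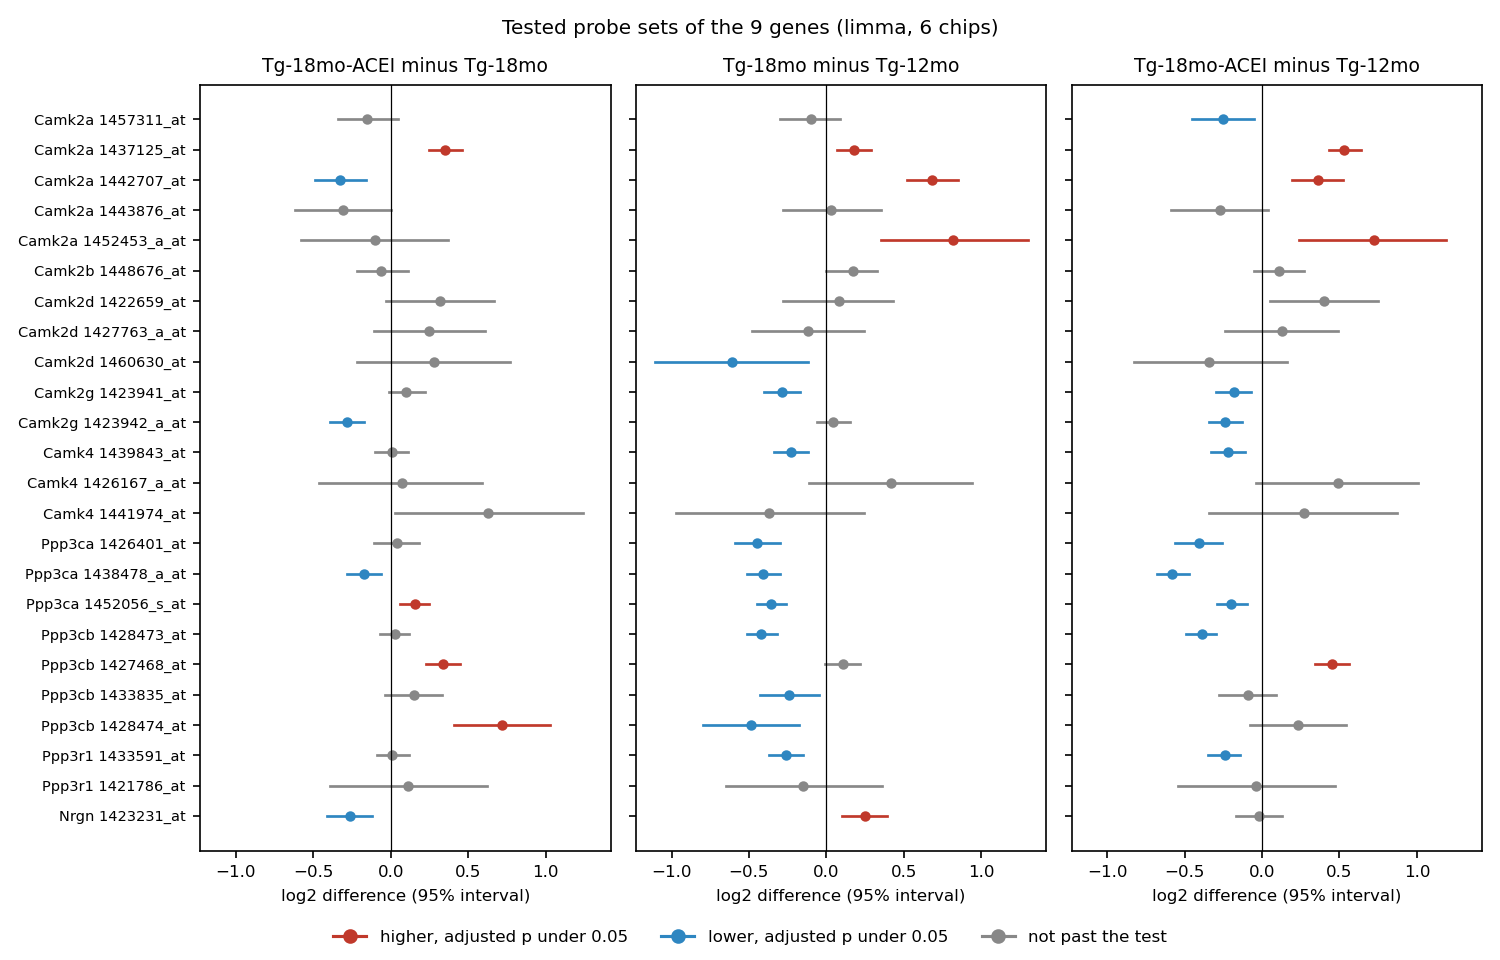
Log2 difference (x axis) with its 95% interval for the 24 tested probe sets (rows, by gene), in the 3 comparisons, with probe sets called higher, called lower and not called in separate colours. Called members lie between -0.61 and 0.82, and for Camk2a and Ppp3ca calls in both directions appear with captopril.

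The second comparison asked how untreated mice differed between 18 and 12 months, the ages of high and low plaque load. In Tg-18mo compared to Tg-12mo, 10 of the 24 probe sets were lower and 4 were higher, 41.7% and 16.7%, beside 21.5% lower and 25.9% higher among all probe sets tested. After quantile normalization this turned to 5 lower and 8 higher. With each chip divided by its median, the members were 10 lower and 2 higher, and all probe sets turned to 6814 lower and 4168 higher, against 4990 lower and 6017 higher on the deposited signals. By the brightest probe set, the calcineurin genes Ppp3ca, Ppp3cb and Ppp3r1 and the kinases Camk2g and Camk4 were lower, and Nrgn was higher. The calcineurin probe sets are among the brightest, and bright probe sets as a whole ran the same way: among the 633 probe sets whose mean signal reached 10000, 92.6% were lower in Tg-18mo and 0.632% were higher, with a median log2 difference of -0.49. The 6 members in this range had a median of -0.38, and 5 of them were lower. After quantile normalization, 19.7% of the 633 were lower and 23.2% were higher. The differences of the calcineurin probe sets in this range changed sign or came near 0, while dimmer Ppp3cb probe sets stayed lower, as given below. Of the 14 calls, 3 stayed past the threshold in every alternative limma fit run on single probe sets: Camk2a 1442707_at (higher), Camk2g 1423941_at (lower) and Camk4 1439843_at (lower).

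The brightest Ppp3ca probe set had signals of 15873.0 and 17587.8 in the Tg-18mo pools and 22799.1 and 22779.2 in the Tg-12mo pools. Both older chips were below both younger ones (1.36-fold lower, log2 -0.45 ± 0.06, adjusted p = 0.00067), but after quantile normalization the signal was higher at 18 months (log2 0.17, adjusted p = 0.0033). The other 2 Ppp3ca probe sets were also lower on the deposited signals, at log2 -0.41 for 1438478_a_at and -0.36 for 1452056_s_at, and stood at 0.04 and -0.04 after quantile normalization. The brightest Ppp3cb probe set had 11700.5 and 11826.1 in the Tg-18mo pools and 15539.7 and 15896.5 in the Tg-12mo pools. It was 1.34-fold lower (log2 -0.42 ± 0.04, adjusted p = 0.00011) and at 0.00 after quantile normalization (adjusted p = 0.95). The brightest Ppp3r1 probe set had 12571.8 and 13178.7 in the Tg-18mo pools and 15407.9 and 15377.8 in the Tg-12mo pools. It was 1.20-fold lower (log2 -0.26 ± 0.05, adjusted p = 0.0023), and after quantile normalization it was higher (0.19, adjusted p = 0.0022). With each chip divided by its median, the brightest Ppp3ca, Ppp3cb and Ppp3r1 probe sets were lower at 18 months. Their log2 differences were then -0.56, -0.53 and -0.37 (limma, adjusted p = 0.00025, 4.2e-05 and 0.00049). Since the scalings disagree, no direction with age is given for the brightest calcineurin probe sets. At lower signal, Ppp3cb 1428474_at had 493 and 364 in the Tg-18mo pools and 623 and 569 in the Tg-12mo pools, without overlap. It was lower at 18 months (log2 -0.49 ± 0.14, limma, adjusted p = 0.018). After quantile normalization it was at -0.60 (adjusted p = 0.0078), and after division by the chip median at -0.61 (0.0053). The call did not hold on leaving out Tg-18mo replicate 2 (-0.27) or Tg-12mo replicate 1 (-0.43), or without an intensity trend (adjusted p = 0.058). Ppp3cb 1433835_at, named after its values were seen, was also lower (-0.24, adjusted p = 0.039, and -0.33 after quantile normalization, 0.014). Its call was lost with no filter on low signals (adjusted p = 0.063) and without an intensity trend (0.075).

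**Figure D3:**
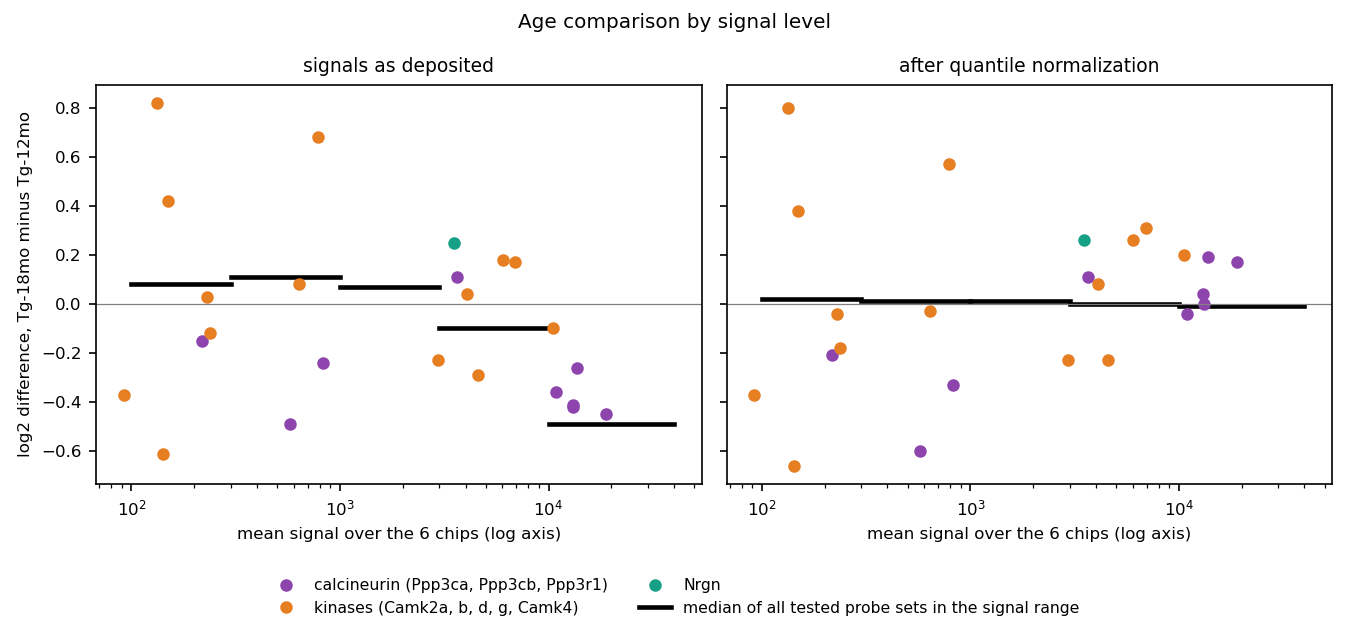
Log2 difference of Tg-18mo minus Tg-12mo against the mean signal over the 6 chips (log axis) for the 24 tested probe sets, coloured by role, on deposited signals (left) and after quantile normalization (right), with horizontal bars for the median of all tested probe sets in a signal range. On deposited signals the bar at 10000 and above is at -0.49, with the bright calcineurin probe sets beside it, and after quantile normalization it is at -0.01.

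Camk4 and Camk2g lie at signals where the age groups differed less on the whole. Camk4 had 2772.7 and 2774.7 in the Tg-18mo pools and 3251.8 and 3247.6 in the Tg-12mo pools. The 2 pairs were each tightly grouped and far apart (1.17-fold lower at 18 months, log2 -0.23 ± 0.05, adjusted p = 0.0046), and the difference was also -0.23 after quantile normalization. The dimmer Camk4 probe sets were not called, at log2 0.42 (1426167_a_at) and -0.37 (1441974_at), and the average over the tested probe sets of the gene was at -0.06 (adjusted p = 0.61). Camk2g 1423941_at had 4320.0 and 4040.7 in the Tg-18mo pools and 5015.8 and 5181.6 in the Tg-12mo pools. It was 1.22-fold lower (log2 -0.29 ± 0.05, adjusted p = 0.0019, and -0.23 after quantile normalization), whereas 1423942_a_at, with 4467.2 and 4275.3 in the Tg-18mo pools and 4198.3 and 4286.8 in the Tg-12mo pools, overlapped and was not called (0.04, interval -0.06 to 0.15). The average over the tested Camk2g probe sets was at -0.12 and was not called (limma, adjusted p = 0.052). Among all 2543 probe sets with a mean signal of 3000 to 10000, 43.3% were lower in Tg-18mo.

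The Camk2a probe sets again differed among themselves. The brightest, with 9823.4 and 11374.4 in the Tg-18mo pools and 10854.9 and 11906.2 in the Tg-12mo pools, overlapped and was not called on the deposited signals (log2 -0.10, interval -0.30 to 0.09), and it was called higher after quantile normalization (0.20, adjusted p = 0.036). Camk2a 1442707_at, with 971 and 982 in the Tg-18mo pools and 614 and 602 in the Tg-12mo pools, was 1.61-fold higher at 18 months (log2 0.68 ± 0.07, adjusted p = 0.00014). The striatal, thalamic and cerebellar marker sums were each highest in the Tg-18mo pools, and their part in this difference was not tested. The dim 1452453_a_at, with 159 and 161 in the Tg-18mo pools and 86.8 and 94.0 in the Tg-12mo pools, was 1.77-fold higher (log2 0.82 ± 0.21, adjusted p = 0.012), a call lost on leaving out replicate 1 (adjusted p = 0.058) or replicate 2 (0.063) of Tg-18mo. Camk2a 1437125_at was 1.13-fold higher (log2 0.18, adjusted p = 0.013), which did not hold on leaving out replicate 2 of Tg-18mo (0.098) or of Tg-12mo (0.061), or with each chip divided by its median (log2 0.06, adjusted p = 0.33).

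Camk2b had 6778.2 and 7845.7 in the Tg-18mo pools and 6742.3 and 6248.6 in the Tg-12mo pools. Both older chips were above the younger ones, by log2 0.17 (interval 0.00 to 0.33, adjusted p = 0.084), which was called after quantile normalization (0.31, adjusted p = 0.0040) and on leaving out Tg-18mo replicate 1 (0.27, adjusted p = 0.015). Camk2d was measured with 653 and 540 in the Tg-18mo pools and 619 and 511 in the Tg-12mo pools, which overlapped (log2 0.08, adjusted p = 0.70). Its dim probe set 1460630_at, with 107 and 120 in the Tg-18mo pools and 184 and 163 in the Tg-12mo pools, was 1.53-fold lower (log2 -0.61 ± 0.22, adjusted p = 0.045), and the call was lost without any of the 4 chips compared (adjusted p = 0.062 to 0.18).

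Nrgn had 3928.2 and 3962.2 in the Tg-18mo pools and 3224.0 and 3435.3 in the Tg-12mo pools, and was 1.19-fold higher at 18 months (log2 0.25 ± 0.06, adjusted p = 0.014). The difference was 0.26 after quantile normalization (adjusted p = 0.0099) and 0.13 with each chip divided by its median (adjusted p = 0.14). On leaving out Tg-18mo replicate 1, Tg-18mo replicate 2 or Tg-12mo replicate 1 the adjusted p was 0.055, 0.065 or 0.079. Of the 5 striatal markers, 3 were called higher and 0 lower at 18 months, and of the 4 tested thalamic markers 3 were higher and 1 was lower. Of 4 CA pyramidal markers 1 was higher and 1 lower. Of 5 dentate granule markers 2 were higher and 1 lower, as were 2 and 1 of 5 interneuron markers. This comparison and the one with captopril share the Tg-18mo chips, so a high value there enters both.

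The third comparison set captopril-treated mice of 18 months against the age at which treatment began. In Tg-18mo-ACEI compared to Tg-12mo, 9 of 24 probe sets were lower and 4 were higher (37.5% and 16.7%), beside 17.7% lower and 22.3% higher among all probe sets. After quantile normalization 2 members were lower and 8 higher. With each chip divided by its median 10 were lower and 3 higher, and 6238 lower and 3322 higher of all probe sets, against 4129 lower and 5193 higher on the deposited signals. The 6 members whose mean signal reached 10000 were all lower, as were 95.1% of all probe sets in that range. Camk4 had 2725.6 and 2846.3 in the Tg-18mo-ACEI pools and 3251.8 and 3247.6 in the Tg-12mo pools, with no overlap (log2 -0.22 ± 0.05, adjusted p = 0.0063, and -0.23 after quantile normalization), while the average over its tested probe sets was at 0.18 (adjusted p = 0.15). Camk2a 1437125_at had 7257.8 and 7386.6 in the Tg-18mo-ACEI pools and 5097.4 and 5026.5 in the Tg-12mo pools (1.45-fold higher, log2 0.53 ± 0.05, adjusted p = 7.5e-05). Ppp3cb 1427468_at had 4331.8 and 4364.2 in the Tg-18mo-ACEI pools and 3252.3 and 3122.9 in the Tg-12mo pools (1.36-fold higher, log2 0.45 ± 0.05, adjusted p = 0.00021). In both, the treated chips were above all others. The dim Camk2a 1452453_a_at had 168 and 131 in the Tg-18mo-ACEI pools and 86.8 and 94.0 in the Tg-12mo pools. It was 1.64-fold higher (log2 0.72 ± 0.21, adjusted p = 0.025). The difference was 0.53 on leaving out Tg-18mo-ACEI replicate 1, and with each chip divided by its median it was not called (0.59, adjusted p = 0.051). Both Camk2g probe sets were lower on the deposited signals, at log2 -0.18 (1423941_at, adjusted p = 0.019) and -0.24 (1423942_a_at, adjusted p = 0.0045). The first of these calls was lost after quantile normalization (-0.11, adjusted p = 0.098) and on leaving out Tg-18mo-ACEI replicate 1 (0.063), Tg-18mo-ACEI replicate 2 (0.087) or Tg-12mo replicate 2 (0.091). The brightest Camk2a probe set was lower at log2 -0.25 (adjusted p = 0.049) and stood at 0.11 after quantile normalization, and it was not called on leaving out Tg-18mo-ACEI replicate 2 (0.27), Tg-12mo replicate 1 (0.056) or Tg-12mo replicate 2 (0.23). Ppp3ca, Ppp3cb and Ppp3r1 by their brightest probe sets were lower on the deposited signals, at log2 -0.41, -0.39 and -0.24. They stood at 0.28, 0.10 and 0.28 after quantile normalization, and at -0.53, -0.52 and -0.37 with each chip divided by its median. Nrgn did not pass the test, with 3487.2 and 3093.5 in the Tg-18mo-ACEI pools and 3224.0 and 3435.3 in the Tg-12mo pools (log2 -0.02, interval -0.17 to 0.13). Of the 13 calls, 5 stayed past the threshold in every alternative limma fit run on single probe sets: Camk2a 1437125_at and 1442707_at and Ppp3cb 1427468_at (higher), and Camk2g 1423942_a_at and Camk4 1439843_at (lower).

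Where probe sets of 1 gene differed, the ratio of their signals on the same chip gave a value that does not change with a constant factor per chip, but does with a scaling that depends on signal. The ratio of the second brightest to the brightest probe set was taken for the 4 genes in which both had a mean signal of at least 1000, a choice made after the values were seen, and it shows that 2 probe sets changed unequally, not which of them changed. For Camk2a the ratio of 1437125_at to 1457311_at was 0.711 and 0.826 in the Tg-18mo-ACEI pools, 0.567 and 0.518 in the Tg-18mo pools and 0.470 and 0.422 in the Tg-12mo pools, with no overlap between groups. For Ppp3cb the ratio of 1427468_at to 1428473_at was 0.364 and 0.362 in the Tg-18mo-ACEI pools, 0.300 and 0.283 in the Tg-18mo pools and 0.209 and 0.196 in the Tg-12mo pools, in the same group order and without overlap. Quantile normalization reduced the age differences of these ratios: the log2 difference of 18 minus 12 months was 0.52 for Ppp3cb on the deposited signals and 0.11 after it, and 0.28 and 0.06 for Camk2a. For Tg-18mo-ACEI minus Tg-12mo it was 0.84 and 0.36 for Ppp3cb, and 0.78 and 0.57 for Camk2a. With captopril at 18 months it was 0.32 and 0.25 for Ppp3cb, and 0.50 and 0.51 for Camk2a. For Camk2g the ratio of 1423942_a_at to 1423941_at was 0.807 and 0.798 in the Tg-18mo-ACEI pools, 1.03 and 1.06 in the Tg-18mo pools and 0.837 and 0.827 in the Tg-12mo pools. The Camk2g ratio was thus highest in the Tg-18mo pools. These chips had the highest β-actin 3′/5′ ratio and the lowest Gapdh 3′/5′ ratio (0.828 and 0.832). The β-actin ratio was 1.45 and 1.38 in the Tg-18mo-ACEI pools, 1.98 and 1.88 in the Tg-18mo pools and 1.83 and 1.77 in the Tg-12mo pools. The part of the 3′/5′ ratios was not tested. The log2 difference of the Camk2g ratio was -0.38 with captopril and 0.33 with age, and -0.41 and 0.30 after quantile normalization. For Ppp3ca the ratio of 1438478_a_at to 1426401_at was 0.610 and 0.657 in the Tg-18mo-ACEI pools, 0.748 and 0.715 in the Tg-18mo pools and 0.701 and 0.719 in the Tg-12mo pools, where the untreated groups overlapped. Its log2 difference with captopril was -0.21, and -0.23 after quantile normalization.

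**Figure D4:**
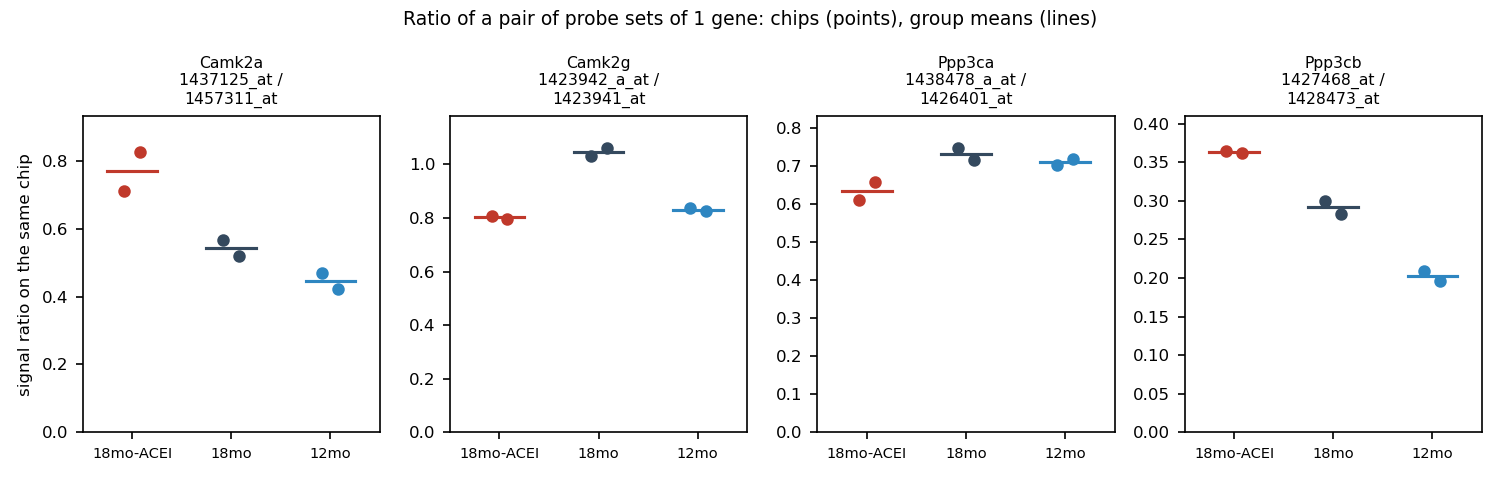
Ratio of the signals of a pair of probe sets on the same chip (y axis from 0), with chips as points and group means as lines, for Tg-18mo-ACEI, Tg-18mo and Tg-12mo. On deposited signals, the Camk2a and Ppp3cb ratios are highest in the Tg-18mo-ACEI pools, and the Camk2g ratio is highest in the Tg-18mo pools.

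Around these genes, 48 further genes of calmodulin signaling were listed, of which 41 had a probe set and 39 were tested by their brightest one. With captopril 6 were higher and 15 lower (median log2 -0.13). At 18 compared to 12 months, 16 were higher and 10 lower (median 0.13). In Tg-18mo-ACEI compared to Tg-12mo, 9 were higher and 12 lower (median 0.07), and the percentages of all probe sets called are those given for each comparison above. Division by the chip median left the count with captopril at 6 higher and 15 lower, but turned those of the ages to 12 higher and 14 lower and those of Tg-18mo-ACEI against Tg-12mo to 2 higher and 13 lower. After quantile normalization the counts were 7 higher and 16 lower with captopril, 16 and 7 for the ages, and 11 and 8 for Tg-18mo-ACEI against Tg-12mo. Among the synaptic partners and substrates of CaMKII, 5 of 6 tested genes were higher in Tg-18mo than in Tg-12mo and 0 were lower, and with captopril 1 was lower and 0 were higher. The age count of 5 was 4 after quantile normalization and 2 after division by the median. Dlg4, called in both comparisons and picked after its values were seen, encodes the scaffold PSD-95 and had 1517.6 and 1418.4 in the Tg-18mo-ACEI pools, 1692.3 and 1706.9 in the Tg-18mo pools and 1057.7 and 1113.1 in the Tg-12mo pools.

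Several of the listed genes differed by more than any of the 24 member probe sets. Dapk1, a calmodulin-dependent death-associated kinase, had 2315.3 and 2385.8 in the Tg-18mo-ACEI pools, 5680.5 and 5476.1 in the Tg-18mo pools and 1987.9 and 2024.6 in the Tg-12mo pools. The Tg-18mo chips were above all others (log2 -1.25 with captopril, adjusted p = 1.3e-06, and 1.48 with age, adjusted p = 1.6e-06). Pde1a, a calmodulin-activated phosphodiesterase, had 3027.9 and 2858.0 in the Tg-18mo-ACEI pools, 898 and 869 in the Tg-18mo pools and 1598.8 and 1496.5 in the Tg-12mo pools. It was higher with captopril (log2 1.74, adjusted p = 9.1e-07) and lower at 18 than at 12 months (-0.81, adjusted p = 3.1e-05). Camkk2, the kinase that activates Camk4, had 2169.6 and 2327.2 in the Tg-18mo-ACEI pools, 1367.8 and 1318.4 in the Tg-18mo pools and 2760.7 and 2854.7 in the Tg-12mo pools. It was higher with captopril (log2 0.74, adjusted p = 4.6e-05) and lower at 18 than at 12 months (-1.06, adjusted p = 8.3e-06). Camk2n1, an endogenous inhibitor of CaMKII, had 15412.9 and 14277.4 in the Tg-18mo-ACEI pools, 14659.7 and 15454.5 in the Tg-18mo pools and 25555.6 and 25313.1 in the Tg-12mo pools, and was at log2 -0.76 for 18 minus 12 months, or -0.12 after quantile normalization. Cabin1, a calcineurin inhibitor, had 578 and 560 in the Tg-18mo-ACEI pools, 850 and 781 in the Tg-18mo pools and 505 and 425 in the Tg-12mo pools, and was lower with captopril (log2 -0.52, adjusted p = 0.0057) and higher with age (0.81, adjusted p = 0.00033). Ppp1r1b, the protein phosphatase 1 inhibitor DARPP-32, had 742 and 557 in the Tg-18mo-ACEI pools, 1445.3 and 1352.1 in the Tg-18mo pools and 1025 and 986 in the Tg-12mo pools. Ppp1r1b was lower with captopril (log2 -1.12, adjusted p = 0.00030). It is itself one of the striatal markers, so their summed signal, which ran the same way, contains its own signal. Ppp1r1a, another inhibitor of protein phosphatase 1, was lower in Tg-18mo-ACEI than in Tg-12mo, with 1908.6 and 1900.8 in the Tg-18mo-ACEI pools and 2697.8 and 2727.7 in the Tg-12mo pools (log2 -0.51, adjusted p = 0.0029). The directions given here for Dapk1, Pde1a, Camkk2, Cabin1, Ppp1r1b and Ppp1r1a were called the same way after quantile normalization and after division by the median.

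Over the 6 chips, the gene patterns closest to a member were found as the root mean square difference of centred log2 signals among 11656 probe sets. For the brightest Camk2a probe set the closest were 1500011B03Rik (0.035), Klf9 (0.039) and Tom1 (0.040). For the brightest Ppp3ca probe set they were Nckap1 (0.016), Mapk8ip2 (0.022) and Cnbp (0.026). Their Tg-12mo means exceeded their Tg-18mo means, with 14257.0 in the Tg-18mo pools and 19241.2 in the Tg-12mo pools in the case of Nckap1, and the likeness describes 6 chips only.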

How the data were processed

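Hippocampal RNA of 3 groups was profiled on 6 Affymetrix MG430 2.0 chips. The authors deposited linear signal intensity values, 1 per probe set and chip, made with GCOS per the submitters' processing notes and scaled to a target of 600; the mean after trimming 2 percent at each end was checked to be 600 on every chip. Detection calls and raw images were not used. No array background or probe-level step was redone, so the intensity values carry the authors' settings. Gene symbols came from the platform annotation, which may be old: 34958 of 45101 probe sets had 1 symbol, 932 had several and 9211 had none.

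Log2 signals of 23262 non-control probe sets with a group mean of at least 100 were fitted with limma 3.58.1 (R 4.3.3, lmFit and eBayes with an intensity trend, 3 residual and 5.37 prior degrees of freedom), with all 6 chips and 3 group means. P-values were adjusted over all of them (Benjamini-Hochberg, 0.05). The script was tested on simulated data. The number of chips limits the precision, and errors given after ± are standard errors of log2 differences.

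Values are given for the brightest probe set of each gene and for other probe sets past the test with a log2 difference of at least 0.58; others named are said to be chosen after their values were seen. The genes and lists were chosen with earlier results of these data known. The 48 listed genes are represented by their brightest probe set, and the 4 largest differences per comparison among those called are named, together with Dlg4. Each setting was varied by itself: no filter, a stricter minimum of 200, 32 added before the logarithm, quantile normalization, division by the chip median, a fit of 2 groups at a time, a replicate block, a prior without trend, the methods' t-test, gene means over all or plain probe sets (those without _a, _s or _x), and omission of each chip. Tables and figures used pandas 2.3.3 and matplotlib 3.10.9 in Python 3.11.15.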

Additional observations from a re-analysis of the deposited data

How the results depend on the processing

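With captopril at 18 months, 4 member probe sets were higher and 4 lower, and leaving out each chip gave 3 to 4 higher and 1 to 4 lower. By brightest probe set (0 genes higher, 1 lower), leave-one-out gave 0 to 0 higher and 0 to 1 lower, quantile normalization gave 1 higher, no intensity trend 0 lower, averaging a gene over all its probe sets 1 higher and over its plain probe sets 2 higher. For 18 against 12 months (4 probe sets higher, 10 lower), leave-one-out gave 1 to 4 higher and 7 to 10 lower, quantile normalization 8 higher and 5 lower, and both division by the chip median and no intensity trend 2 higher. By brightest probe set (1 gene higher, 5 lower), leave-one-out gave 0 to 1 higher and 5 to 5 lower, quantile normalization 5 higher and 2 lower, division by the median or no trend 0 higher, the average of all probe sets 2 higher and 2 lower, and the plain mean 2 higher. For Tg-18mo-ACEI against Tg-12mo (4 probe sets higher, 9 lower), leave-one-out gave 4 to 4 higher and 7 to 9 lower and quantile normalization 8 higher and 2 lower. By brightest probe set (0 higher, 6 lower), leave-one-out gave 0 to 1 higher and 4 to 6 lower, quantile normalization 3 higher and 1 lower, the average of all probe sets 1 higher and 2 lower, and the plain mean 2 lower. The methods' t-test at the study's thresholds called 0 members and 0 genes in every comparison, and after adjustment also 0, except 1 higher and 3 lower probe sets and 2 lower genes (0 higher) for 18 against 12 months.

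Directions that turned were as follows. After quantile normalization, the log2 difference of 18 minus 12 months was 0.20 for Camk2a 1457311_at, 0.17 for Ppp3ca 1426401_at, 0.04 for Ppp3ca 1438478_a_at, 0.00 for Ppp3cb 1428473_at and 0.19 for Ppp3r1 1433591_at, and that of Tg-18mo-ACEI minus Tg-12mo was 0.11 for Camk2a 1457311_at, 0.28 for Ppp3ca 1426401_at, 0.21 for Ppp3ca 1452056_s_at, 0.10 for Ppp3cb 1428473_at and 0.28 for Ppp3r1 1433591_at. With a gene averaged over all its probe sets in place of the brightest, Camk2a was at 0.32 for 18 minus 12 months, and Camk2a was at 0.22, Camk4 at 0.18 and Ppp3cb at 0.05 for Tg-18mo-ACEI minus Tg-12mo. With the plain mean, Camk2a was at 0.20 for 18 minus 12 months, and Camk2a was at 0.09, Camk4 at 0.02 and Ppp3cb at 0.05 for Tg-18mo-ACEI minus Tg-12mo. Over all probe sets, division by the chip median moved the median log2 difference from 0.05 to -0.07 for 18 minus 12 months and from 0.05 to -0.08 for Tg-18mo-ACEI minus Tg-12mo. Same-numbered replicates did not deviate together (r of -0.03, -0.0519 and 0.0344), so the numbers name chips only. With the replicate number as a block, 3 members were higher and 3 lower with captopril, 4 and 9 for 18 against 12 months, and 4 and 8 for Tg-18mo-ACEI against Tg-12mo. The causes were not tested. With 2 chips per group, the dim probe sets of Camk4, Ppp3r1, Camk2d and Camk2a had the widest intervals, so small differences of these probe sets could not be called.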

Other observations

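A further probe set, 1450368_a_at, is annotated to both Wdr92 and Ppp3r1 and was therefore not counted for either gene. Its signals were 493 and 453 in the Tg-18mo-ACEI pools, 211 and 188 in the Tg-18mo pools and 426 and 391 in the Tg-12mo pools. The Tg-18mo chips were below all others, with a log2 difference of 1.25 with captopril (limma, adjusted p = 0.00014) and -1.03 for Tg-18mo minus Tg-12mo (adjusted p = 0.00020). The probe sets with Ppp3r1 as their single symbol were not called with captopril.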
